A study of Mus musculus with 12 samples.

Results

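Protein kinase C isoforms were followed through a gene expression table of mouse brain by taking the rows named Prkca, Prkcb, Prkcd, Prkce, Prkch, Prkcq, Prkci and Prkcz, which gave 8 genes of 15759 entries. They comprise 2 conventional isoforms (Prkca and Prkcb), 4 nPKC isoforms (Prkcd, Prkce, Prkch and Prkcq, the class that needs diacylglycerol but not calcium) and 2 atypical isoforms (Prkci and Prkcz). The animals were SCA1 KI mice, a model of spinocerebellar ataxia type 1 in which 1 Atxn1 allele carries an expanded CAG repeat (Atxn1 154Q/2Q) under the endogenous regulators of the gene, and WT mice, all C57BL/6J and 12 weeks old. Poly-adenylated RNA was sequenced from whole cortex and whole cerebellum in 12 libraries, with 3 libraries for each of WT cortex, SCA1 KI cortex, WT cerebellum and SCA1 KI cerebellum. The labels list males, whereas the methods of the study combine males and females. Since ataxin-1 is mutant in every cell that transcribes the allele and the tissue was not sorted, a difference cannot be placed in 1 cell type, and fewer cells of a type and less RNA per cell cannot be told apart.

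Protein kinase C enzymes are serine and threonine kinases that are held inactive by a pseudosubstrate in their own regulatory region. Receptors coupled to Gq activate phospholipase C, which splits a membrane lipid into inositol trisphosphate, a releaser of calcium, and diacylglycerol. Conventional isoforms need both calcium and diacylglycerol, the nPKC isoforms need diacylglycerol alone, and atypical isoforms need neither and work through protein partners such as the Par polarity complex. In neurons, the kinases phosphorylate receptors, ion channels, release proteins and growth cone proteins, and are known for their part in synaptic plasticity and, in the cerebellum, in long-term depression at Purkinje cell synapses.

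Values are normalized counts, that is, the reads of a gene over the library's size factor. An LFC is a difference in log2(normalized count + 1) from limma, and a gene was called where its Benjamini-Hochberg adjusted p over all 15369 genes tested was below 0.05 and its LFC exceeded 0.25 in size. All 8 isoforms passed the filter, which asked for a mean normalized count of 10 or more. Libraries are named by the letters and numbers of the table's header, and nothing in the sources ties them to separate litters or days, so that p-values measure only the spread between these samples.

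Each library held between 29520855 and 51311309 reads on genes. Markers of other tissue differed between the genotypes, and some libraries also stood apart in them. Midbrain markers summed to 1410 to 1680 normalized counts in WT cortex and to 2507 to 3252 in SCA1 KI cortex, with 3 of 7 called higher, and to 5808 to 9676 in WT cerebellum against 3282 to 3823 in SCA1 KI cerebellum, with 5 of 7 called lower. WT cerebellum library 2 had the highest of these sums and the lowest sum of granule cell markers, 143453 normalized counts against 195048 to 211807 in the other cerebellar libraries. WT cortex library B had striatal markers summing to 27031 normalized counts against 8472 to 15395 in the other cortical libraries. Granule cell markers of the cerebellum summed to 2511 to 5138 normalized counts in cortex. Gabra6, which defines these cells, was at 14.4 ± 24.0 in WT cortex against 26496 ± 5687 in WT cerebellum (SD, n = 3). The SD in WT cortex exceeds the mean, so the WT cortex libraries were uneven. In SCA1 KI cortex Gabra6 averaged 1.61.

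The promoters of Prkca, Prkcb and Prkcz are shown because these isoforms fell together in SCA1 KI cortex and had an entry in the RefSeq promoter table of GRCm38.p6, which held 6 of the 8 isoforms. Each is the 300 bases around the transcription start, written 5′ to 3′ on the strand of the gene, with capitals marking the GC box GGGCGG on either strand. The Prkca promoter lies at chr11:108343839-108344138 on the minus strand.
Prkca: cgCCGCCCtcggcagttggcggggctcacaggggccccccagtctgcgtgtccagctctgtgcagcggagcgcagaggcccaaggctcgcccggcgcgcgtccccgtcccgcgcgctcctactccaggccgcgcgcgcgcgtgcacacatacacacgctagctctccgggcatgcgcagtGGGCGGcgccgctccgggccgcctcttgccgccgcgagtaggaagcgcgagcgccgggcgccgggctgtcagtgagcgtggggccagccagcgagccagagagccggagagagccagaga
The Prkcb promoter lies at chr7:122288875-122289174 on the plus strand.
Prkcb: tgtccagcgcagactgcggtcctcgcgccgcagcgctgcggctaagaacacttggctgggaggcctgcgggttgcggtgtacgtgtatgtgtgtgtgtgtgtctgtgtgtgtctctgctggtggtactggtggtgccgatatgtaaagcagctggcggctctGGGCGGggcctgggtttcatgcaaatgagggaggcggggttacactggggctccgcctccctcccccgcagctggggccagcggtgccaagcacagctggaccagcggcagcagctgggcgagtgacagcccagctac
The first of 3 Prkcz entries lies at chr4:155361379-155361678 on the minus strand.
Prkcz: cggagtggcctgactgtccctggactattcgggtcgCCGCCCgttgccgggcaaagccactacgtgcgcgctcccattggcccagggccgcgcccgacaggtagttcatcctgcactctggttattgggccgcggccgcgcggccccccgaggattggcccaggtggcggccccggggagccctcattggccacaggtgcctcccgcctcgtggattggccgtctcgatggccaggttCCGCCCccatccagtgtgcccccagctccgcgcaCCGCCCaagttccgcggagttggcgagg

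The GC box had 2 matches in the Prkca promoter, 1 in that of Prkcb and 3 in that of Prkcz, and at least 1 match stands in 35.7% of all 32851 promoters of this length. The GC content was 75.3% for Prkca, 65.3% for Prkcb and 71.0% for Prkcz, above the median of 52.7% over all promoters. Neither the TATA box TATAAA, held by 13.6% of all promoters, nor the octamer TGAATGAA that the ataxin-1 partner Capicua binds, held by 1.3%, occurred on either strand in these windows. Of isoforms not called in cortex, Prkcd entry 1 held 4 matches of the GC box and entry 2 held 0. Prkcq held 1 match and Prkci 2. Their GC content was 69.3% for Prkcd entry 1, 51.3% for Prkcd entry 2, 73% for Prkcq and 59.7% for Prkci. High GC content was thus not particular to the isoforms that fell. Prkcz entries 2 and 3, not shown, had a GC content of 59.3% and 58.3%, with 0 and 2 matches of the GC box. Which Prkcz entry is used in these tissues was not tested.

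In WT cortex, Prkcb was the most abundant isoform per length of exons, at 8856 ± 535 normalized counts per kb (SD, n = 3). Prkce followed at 3568 ± 165 per kb, then Prkcz at 1779 ± 77.0, Prkca at 1434 ± 114 and Prkci at 591 ± 41.7. The other 3 nPKC isoforms were far lower, with Prkcq at 58.1 ± 6.21 per kb, Prkcd at 56.6 ± 5.57 and Prkch at 25.0 ± 3.04. The libraries of neighbours in this order did not overlap except for Prkcq and Prkcd, so the order of that pair is not set by these data.

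In WT cerebellum, Prkcb again had the highest level, at 3213 ± 320 normalized counts per kb, ahead of Prkce at 1707 ± 108 and Prkcz at 1353 ± 134. Prkci at 519 ± 28.0 and Prkca at 518 ± 16.5 normalized counts per kb overlapped, and Prkcd at 472 ± 9.67 came just below them. Prkcq at 58.0 ± 11.5 and Prkch at 19.7 ± 3.39 per kb were lowest. With the longest transcript in place of all exons as the length, a choice added after the data were seen, Prkcb had 20360 normalized counts per kb in WT cortex, Prkcd ranked above both Prkci and Prkca in WT and SCA1 KI cerebellum, and Prkce and Prkcz changed places in WT cerebellum.

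The regions were then compared within WT mice. Both conventional isoforms were higher in WT cortex than in WT cerebellum, the nPKC isoforms went both ways, and of the atypical isoforms only Prkcz was called. In all, 4 isoforms were called higher in cortex, against 31.0% of genes tested, and 1 was called lower, against 30.7%. Since the cerebellar libraries come from an earlier dataset of the same laboratory, region and dataset cannot be told apart.

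**Figure D1:**
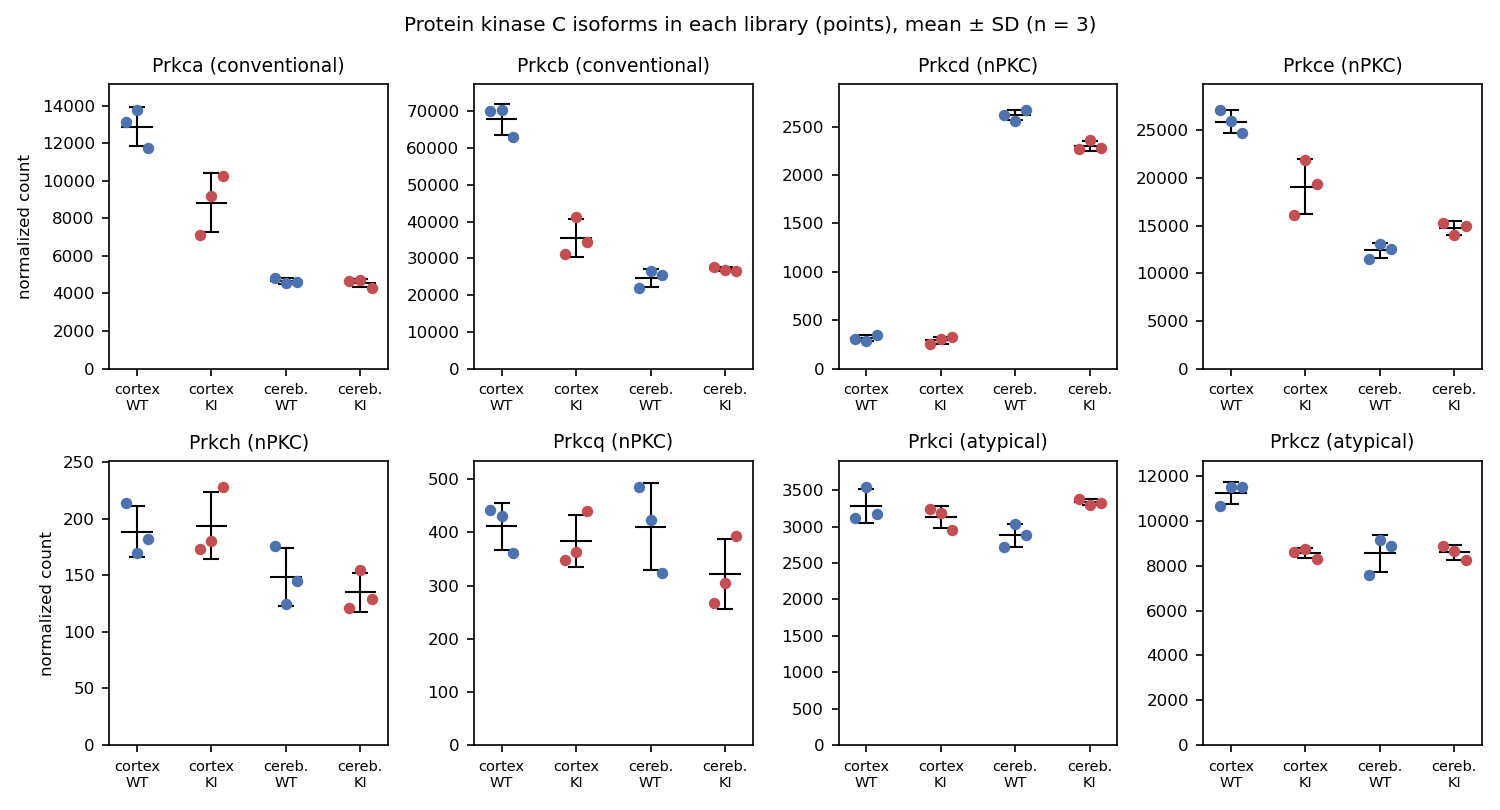
Normalized counts of each isoform (y axis, from 0, a separate scale for each panel) in WT and SCA1 KI (KI) cortex and cerebellum (cereb.), with a point for each library (blue WT, red SCA1 KI) and the mean ± SD of 3 libraries in black. The SCA1 KI cortex points of Prkca, Prkcb, Prkce and Prkcz lie below all WT cortex points, and Prkcd is higher in cerebellum.

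Prkcd, an nPKC isoform known for roles in apoptosis and in defined neuron types, showed the widest region difference of the 8 isoforms. It measured 304, 289 and 348 normalized counts in WT cortex libraries B, C and D and 2622, 2563 and 2670 in WT cerebellum libraries 2, 4 and 6. Cortex was 8.34-fold lower (LFC −3.06 ± 0.09 SE, adjusted p = 3.49e-11, limma). Its level in WT cerebellum thus came close to those of Prkca and Prkci per kb, whereas in WT cortex it was among the 3 lowest isoforms.

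Prkca and Prkcb were each higher in WT cortex than in WT cerebellum by an LFC of 1.47, that is 2.77-fold for Prkca (adjusted p = 8e-08, limma) and 2.76-fold for Prkcb (adjusted p = 3.55e-08). Prkce was 2.09-fold higher in cortex (LFC 1.06 ± 0.09 SE, adjusted p = 4.85e-07), and Prkcz was 1.32-fold higher (LFC 0.40 ± 0.07 SE, adjusted p = 0.000239). The LFC of Prkci was 0.19 with an adjusted p of 0.0221, below the limit on size. That of Prkch was 0.35 (adjusted p = 0.0701) and that of Prkcq 0.02 (adjusted p = 0.939). Without WT cerebellum library 2, Prkch passed the threshold (LFC 0.48, adjusted p = 0.023).

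The next comparison asked whether the isoforms differed between SCA1 KI and WT cortex. Prkcb, Prkca, Prkce and Prkcz were lower in SCA1 KI cortex and none was higher, so that 4 of 8 isoforms fell where 10.8% of all genes tested were called lower. By class, 2 of 2 conventional, 1 of 4 nPKC and 1 of 2 atypical isoforms fell. The same 4 isoforms had SCA1 KI libraries entirely below the WT libraries, which held for 18.0% of genes tested. The median LFC over the 8 isoforms was −0.25, beside a median of −0.0028 over all genes tested. No isoform was higher at an unadjusted p below 0.05 with limma, nor called higher by edgeR or DESeq2, and both of these tools called 4 lower.

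Prkcb, the conventional isoform whose gene gives rise to the βI and βII splice forms, showed the largest difference of the 8. It measured 69985, 70253 and 63037 normalized counts in WT libraries B, C and D and 31082, 41326 and 34295 in SCA1 KI libraries A, E and F. Every SCA1 KI library thus lay far below every WT library, at 45.9% to 61.0% of the WT mean. Prkcb was 1.92-fold lower (LFC −0.94 ± 0.10 SE, 95% interval −1.15 to −0.72, adjusted p = 5.64e-05, limma), and without library A the LFC was −0.85 (adjusted p = 0.000165). Gene counts do not separate the splice forms.

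Prkca, the other conventional isoform, is a kinase of broad distribution that clusters at synapses through PICK1. Its WT cortex libraries held 13163, 13760 and 11759 normalized counts and its SCA1 KI libraries 7106, 9191 and 10239. The groups did not overlap, and SCA1 KI library A was the lowest while F came closest to WT. Prkca was 1.47-fold lower (LFC −0.56 ± 0.11 SE, adjusted p = 0.00346), and without library A the LFC was −0.41 (adjusted p = 0.00404). Part of its exon sequence overlaps Apoh on the opposite strand, and whether the counting used strand is not given in the sources used here.

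Prkce, an nPKC isoform that is prominent in brain and binds actin, held 27081, 25955 and 24685 normalized counts in WT cortex and 16062, 21824 and 19339 in SCA1 KI cortex. Library A was again the lowest, and no SCA1 KI library reached the WT range. Prkce was 1.37-fold lower (LFC −0.45 ± 0.09 SE, adjusted p = 0.00544), with an LFC of −0.33 without library A (adjusted p = 0.0112). Part of its exons is shared with the annotated gene AC154542.1 on the same strand.

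Prkcz, an atypical isoform whose gene also yields the brain form PKMζ, a kinase domain without the regulatory region, held 10677, 11522 and 11518 normalized counts in WT cortex and 8634, 8758 and 8321 in SCA1 KI cortex. The SCA1 KI libraries were close to each other, with library A between the others, and all lay below WT. Prkcz was 1.31-fold lower (LFC −0.39 ± 0.07 SE, adjusted p = 0.00217), with an LFC of −0.40 without library A (adjusted p = 0.00563). Full-length PKCζ and PKMζ are not told apart by the gene counts.

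The other 4 isoforms were not called in cortex, and their groups overlapped. Prkci, the atypical isoform of the Par complex, had an LFC of −0.07 (95% interval −0.21 to 0.07, adjusted p = 0.537). Prkcd had an LFC of −0.10 (95% interval −0.31 to 0.10, adjusted p = 0.506). Prkcq, known from T cell receptor signalling and muscle, had an LFC of −0.10 (95% interval −0.47 to 0.27, adjusted p = 0.733), and Prkch, known from epithelia, had 0.04 (95% interval −0.31 to 0.39, adjusted p = 0.906). For Prkcq and Prkch the intervals still include changes beyond 0.25 in either direction, whereas that of Prkci does not.

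**Figure D2:**
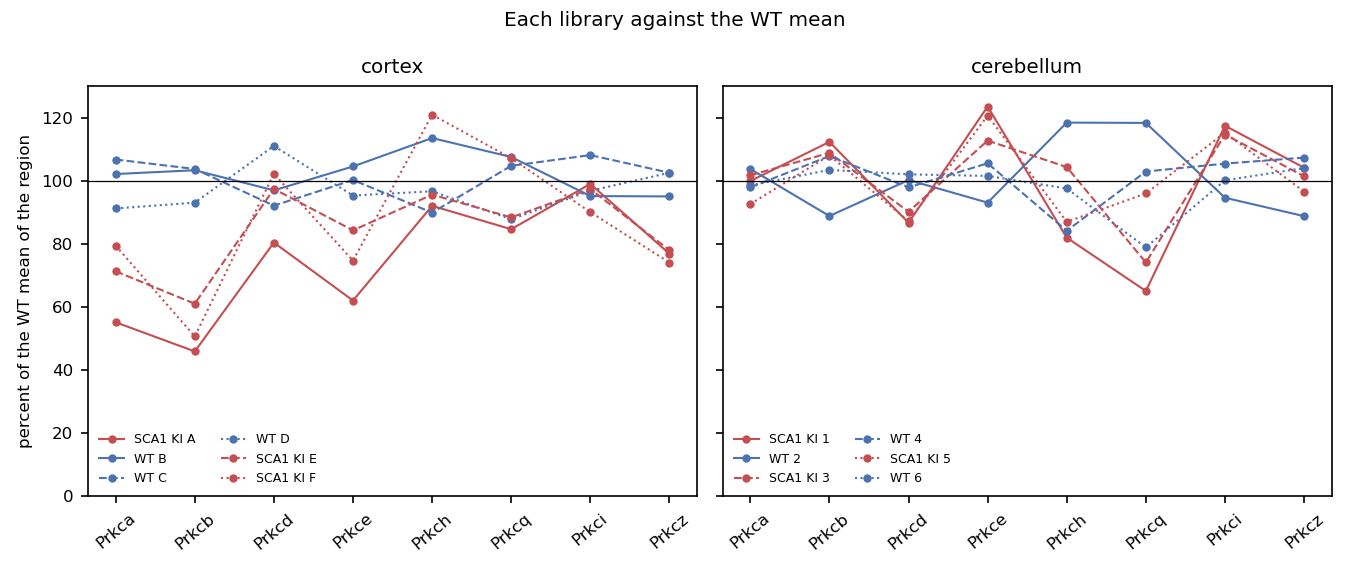
Each library as a percent of the WT mean of its region (y axis) for the 8 isoforms (x axis), with cortex on the left and cerebellum on the right, WT in blue and SCA1 KI in red. In cortex the 3 SCA1 KI libraries fall to 45.9% to 61.0% for Prkcb and to 90.0% to 99.0% for Prkci. Library A is the lowest SCA1 KI cortex library for every isoform but Prkci and Prkcz.

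Ratios between isoforms within the same libraries are given as values, with Prkcb in 3 of the 4 pairs because its LFC was the largest. The log2 ratio of Prkcb to Prkce went from 1.39 ± 0.04 in WT cortex to 0.90 ± 0.07 in SCA1 KI cortex (SD, n = 3, difference −0.49), with no overlap between the groups. The log2 ratio of Prkcb to Prkcz differed by −0.55 and that of Prkcb to Prkca by −0.38, also without overlap. For each of these 3 ratios the two-sided exact permutation test gave p = 0.1, the smallest it allows with 3 libraries a group, so none could pass 0.05. The log2 ratio of Prkca to Prkcz differed by −0.17, within the spread between libraries (exact permutation p = 0.6). In cerebellum the log2 ratio of Prkcb to Prkcz differed in the other direction, by 0.13, also without overlap (exact permutation p = 0.1). These were 5 of 8 ratios tested over both regions, and no adjustment could bring one below 0.1.

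Per kb of exons, the 8 isoforms summed to 16368 ± 773 normalized counts in WT cortex and 10313 ± 1194 in SCA1 KI cortex (SD, n = 3). The conventional share of this sum was 62.8% ± 1.01 in WT and 54.5% ± 1.32 in SCA1 KI cortex. The nPKC share was 22.7% ± 0.613 and 26.7% ± 1.03, and the atypical share 14.5% ± 1.01 and 18.8% ± 2.28. The ranges of these shares did not overlap between the groups in any class. The shares sum to 100%, so a fall in any share raises the rest. As sums per kb, the nPKC and atypical classes also fell. The nPKC sum was 3538 to 3875 in WT and 2330 to 3136 in SCA1 KI cortex, and the atypical sum 2252.5 to 2463 and 1849 to 1962. Prkcb alone went from 54.1% ± 0.756 to 44.98% ± 1.71 of the sum, while the share of Prkca was 8.75% ± 0.308 and 9.53% ± 1.34. With the longest transcript as the length, the conventional share was 73.6% in WT and 65.8% in SCA1 KI cortex.

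**Figure D3:**
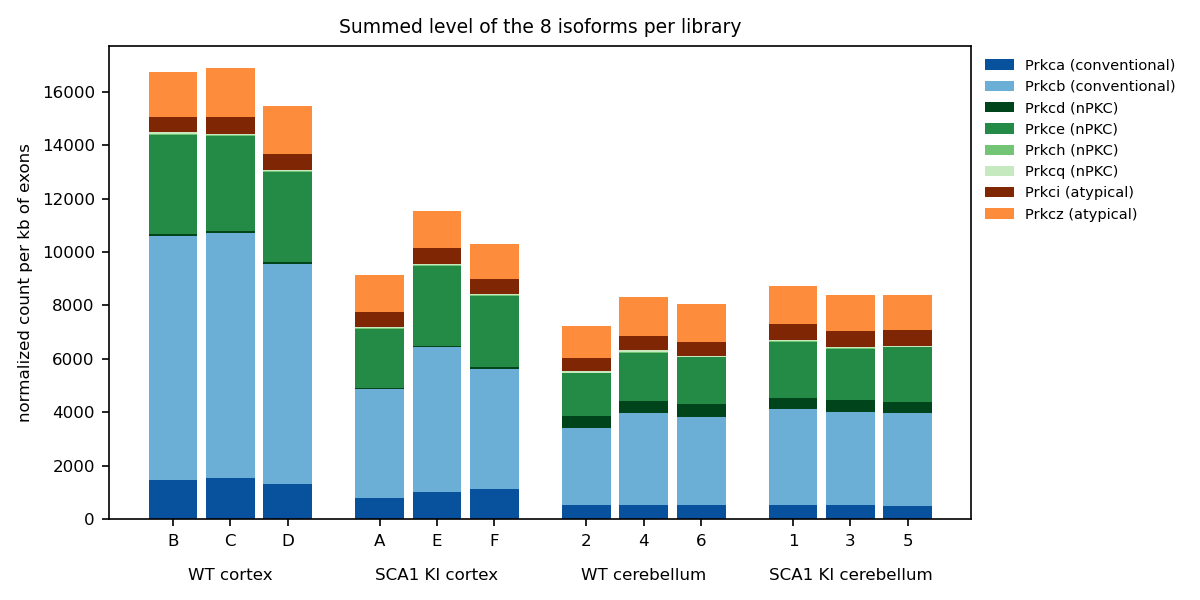
Stacked bars of the normalized count per kb of exons (y axis, from 0) of the 8 isoforms in each of the 12 libraries (x axis), with conventional isoforms in blue, nPKC in green and atypical in orange and brown. The bars of SCA1 KI cortex are shorter than those of WT cortex mainly in the light blue of Prkcb, and the cerebellar bars lie between 7234 and 8713 per kb.

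Other measures also differed between the genotypes in cortex. Of all genes tested, 10.8% were called lower there and 18.0% had SCA1 KI libraries entirely below WT. Markers of cortical excitatory neurons summed to 91393 to 94283 normalized counts in WT cortex and 63324 to 74149 in SCA1 KI cortex, with 3 of 8 called lower (Cux2, Rorb and Slc17a7), 5 of 8 not called and none at 0 in cortex. Most of this sum was Slc17a7, which averaged 61279 in WT and 43454 in SCA1 KI cortex. Astrocyte markers summed to 54658 to 61210 in WT and 37706 to 47675 in SCA1 KI cortex, with 4 of 6 lower. Purkinje cell markers, of which Pcp2 was at 0 in some cortical library, summed to 48366 to 51510 in WT and 28359 to 32438 in SCA1 KI cortex, with 5 of 9 lower and 1 higher. Hippocampal markers summed to 12189 to 12896 and 7293 to 9008, with 2 of 6 lower, and forebrain interneuron markers to 20113 to 20764 and 15039 to 18955, with 1 of 7 lower. Oligodendrocyte, microglia and endothelial markers had none of 6 called in each list. The part of these differences in tissue makeup in the fall of the 4 isoforms was not tested. Without WT cortex library B, with its striatal markers, the LFCs were −0.91 for Prkcb, −0.54 for Prkca, −0.42 for Prkce and −0.43 for Prkcz.

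In cerebellum the same contrast called no isoform in either direction, where 5.36% of genes tested were called. With limma, 2 isoforms were higher at an unadjusted p below 0.05, Prkce and Prkci, and none was lower, and neither edgeR nor DESeq2 called an isoform. The libraries did not overlap for 3 isoforms that were higher in SCA1 KI (Prkcb, Prkce and Prkci) and 1 that was lower (Prkcd), against 14.3% and 17.5% of genes tested. The median LFC over the 8 isoforms was −0.0079, beside −0.0049 over all genes tested.

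Prkce measured 11529, 13070 and 12580 normalized counts in WT cerebellum libraries 2, 4 and 6 and 15303, 13968 and 14951 in SCA1 KI libraries 1, 3 and 5. The SCA1 KI libraries were all above WT, with an LFC of 0.25 ± 0.09 SE (95% interval 0.05 to 0.46, adjusted p = 0.171). Prkci measured 2727, 3038 and 2885 in WT and 3386, 3305 and 3322 in SCA1 KI cerebellum, again without overlap (LFC 0.21 ± 0.06 SE, adjusted p = 0.0857). Neither passed the threshold, and WT library 2 was the lowest for both. Without it, the LFC was 0.20 for Prkce (adjusted p = 0.469) and 0.17 for Prkci (adjusted p = 0.293). In the other direction, Prkce was called in the fit without SCA1 KI cortex library A, which shares its estimate of the spread (LFC 0.25, adjusted p = 0.0447). With the trend on length and GC content removed, both were called, Prkce with an LFC of 0.32 (adjusted p = 0.0136) and Prkci with 0.26 (adjusted p = 0.0434).

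Prkcd measured 2622, 2563 and 2670 normalized counts in WT and 2269, 2361 and 2282 in SCA1 KI cerebellum. The groups did not overlap, and the LFC was −0.18 ± 0.09 SE (95% interval −0.39 to 0.02, adjusted p = 0.348). The part of tissue makeup in this difference was not tested. Prkcb, at 21826, 26500 and 25421 in WT and 27599, 26754 and 26560 in SCA1 KI, had an LFC of 0.14 (95% interval −0.08 to 0.35, adjusted p = 0.546). The separation of Prkcb was narrow for libraries 4 and 6, and without WT library 2 the LFC was 0.06 (adjusted p = 0.932).

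Prkca (LFC −0.03, 95% interval −0.26 to 0.21) and Prkcz (LFC 0.01, 95% interval −0.14 to 0.17) differed by less than the spread between cerebellar libraries. Prkch had an LFC of −0.13 (95% interval −0.48 to 0.22) and Prkcq of −0.35 (95% interval −0.72 to 0.02, adjusted p = 0.319), both from low levels of at most 486 normalized counts. The class shares of the 2 genotypes overlapped in cerebellum. The conventional share was 47.4% ± 0.513 in WT and 47.4% ± 0.424 in SCA1 KI cerebellum, the nPKC share 28.8% ± 0.876 and 29.5% ± 0.784, and the atypical share 23.8% ± 0.362 and 23.1% ± 0.372 (SD, n = 3).

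**Figure D4:**
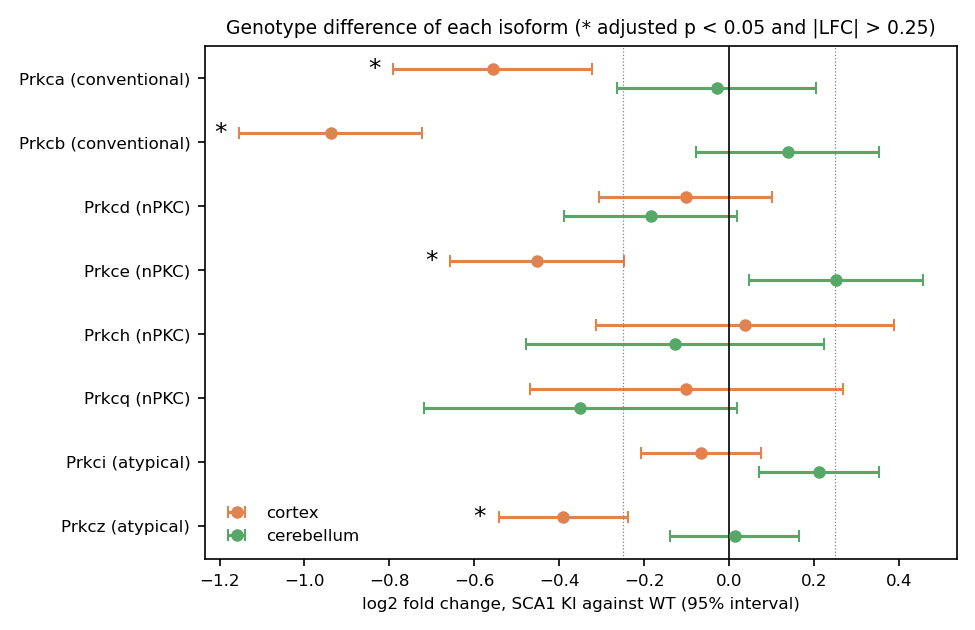
LFC of SCA1 KI against WT (x axis, points) with its 95% interval (bars) for each isoform in cortex (orange) and cerebellum (green), with an asterisk where the isoform was called and dotted lines at 0.25 on each side of 0. The cortical points of Prkca, Prkcb, Prkce and Prkcz lie to the left of −0.25 with an asterisk, and no cerebellar point has one.

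Whether the LFC in cortex differed from that in cerebellum was then tested directly. The difference passed an adjusted p of 0.05 for 3 of 8 isoforms, all more negative in cortex, where 4.89% of genes tested passed in that direction and 3.26% in the other. The difference was −1.08 ± 0.14 SE for Prkcb (adjusted p = 0.000884, limma), −0.70 ± 0.13 for Prkce (adjusted p = 0.00657) and −0.40 ± 0.10 for Prkcz (adjusted p = 0.0247). For Prkca it was −0.53 ± 0.15 with an adjusted p of 0.0527, so a difference between the regions was not shown for this isoform. For Prkci it was −0.28 ± 0.09 (adjusted p = 0.0868), and it was 0.08 for Prkcd, 0.16 for Prkch and 0.25 for Prkcq with adjusted p from 0.616 to 0.782. Prkcb and Prkce passed in all 12 fits that left out a library, whereas Prkcz passed in 7 and Prkca in 3.

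Genes around the kinases were taken from a list of 68 symbols in 6 role groups, of which 66 were tested. In cortex 4 were called higher and 19 lower, with a median LFC of −0.12, beside 4.82% and 10.8% of all genes tested. Without SCA1 KI cortex library A, 12 were lower, and removing the length and GC trend gave 7 higher and 12 lower. In cerebellum 3 were higher and 6 lower, with a median LFC of −0.02, beside 0.917% and 4.44%, and 7 were higher with the trend removed.

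Upstream of the kinases, 4 of 14 tested G protein and phospholipase C genes fell in cortex. Plcb1, the phospholipase that Gq activates in forebrain, measured 18344, 18373 and 17985 normalized counts in WT and 10818, 11816 and 11140 in SCA1 KI cortex. All SCA1 KI libraries were well below WT (LFC −0.70, adjusted p = 1.43e-05). Plcb4, the form prominent in Purkinje cells and thalamus, fell by an LFC of −0.64, and Plch2 by −0.90. In cerebellum Plcb3 alone of this group was called (LFC −0.90, adjusted p = 9.18e-05).

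The diacylglycerol kinases, which remove the activator of conventional and nPKC isoforms, moved both ways in cortex, with 3 of 9 lower and 1 higher. Dgkz went from 25328 ± 625 to 13047 ± 857 normalized counts (SD, n = 3, LFC −0.96, adjusted p = 1.54e-05), Dgkh fell by −0.37 and Dgki by −0.34 on the LFC scale, and Dgka rose by 0.72. Dgkh was called in 9 of 12 fits that left out a library (not without WT B, SCA1 KI A or SCA1 KI F) and Dgki in 8 (not without WT B, C or D or SCA1 KI A, where its LFC was −0.20). Leaving out a cerebellar library changed only the shared estimate of the spread, not the cortical LFCs. Dgkh also fell in cerebellum (LFC −0.55, adjusted p = 0.00464). Of 6 genes that prime or dephosphorylate the kinases, only Pdpk1, which phosphorylates their activation loop, was lower in cortex (LFC −0.30, adjusted p = 0.0229, called in 10 of 12 such fits, not without WT C or SCA1 KI A), and none was called in cerebellum.

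Among 10 tested scaffolds, Wwc1 (KIBRA), a binding partner of PKMζ, fell in cortex (LFC −0.48, adjusted p = 0.00173), as did Akap5, which anchors kinases at synapses (LFC −0.67, adjusted p = 0.0157, called in 10 of 12 fits, not without WT C or SCA1 KI A). In cerebellum Pard6g, of the Par complex, rose (LFC 0.39, adjusted p = 0.0397), but it was called in 7 of 12 fits that left out a library, and of the 6 without a cerebellar library only in that without WT 4. Among 13 substrates, 3 rose and 5 fell in cortex. Of those that fell, Marcksl1 (adjusted p = 0.0477) and Add2 (adjusted p = 0.0481), named after their values were seen, had overlapping libraries and were called in 3 and 4 of 12 fits that left out a library. Marcks, the membrane substrate that binds actin, rose in both regions, from 11031 ± 878 to 15920 ± 2810 normalized counts in cortex (LFC 0.52, adjusted p = 0.00621) and from 7828 ± 409 to 12995 ± 752 in cerebellum (LFC 0.73, adjusted p = 0.00193). Ppp1r14c, an inhibitor of protein phosphatase, rose by 0.38 in cortex and 0.39 in cerebellum, and Gap43, of the growth cone, rose by 0.51 in cortex.

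The substrates that fell in cortex included the release protein Snap25 (LFC −0.64) and the calmodulin-binding Nrgn (LFC −0.70, not called without WT D or SCA1 KI F). Nrgn also fell in cerebellum, from 2687, 1777 and 2480 normalized counts in WT to 155, 96.8 and 118 in SCA1 KI libraries (LFC −4.22, adjusted p = 1.47e-07), and Basp1 by −1.37. Nrgn is a forebrain gene. Like the midbrain marker sums given above, its cerebellar values were lower in SCA1 KI. The WT libraries had the same order in both measures. The SCA1 KI libraries did not, since library 1 had the highest Nrgn value and the lowest midbrain sum. The part of midbrain tissue in the fall of Nrgn was not tested. Of 14 tested other C1 domain proteins and related kinases, which share the diacylglycerol-binding domain, 4 fell in cortex, among them Chn1 (LFC −0.72), Rasgrp1 (LFC −0.49) and Unc13a (LFC −0.50). In cerebellum 2 fell, Rasgrp2 (LFC −1.54) and Chn1 (LFC −0.62).

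**Figure D5:**
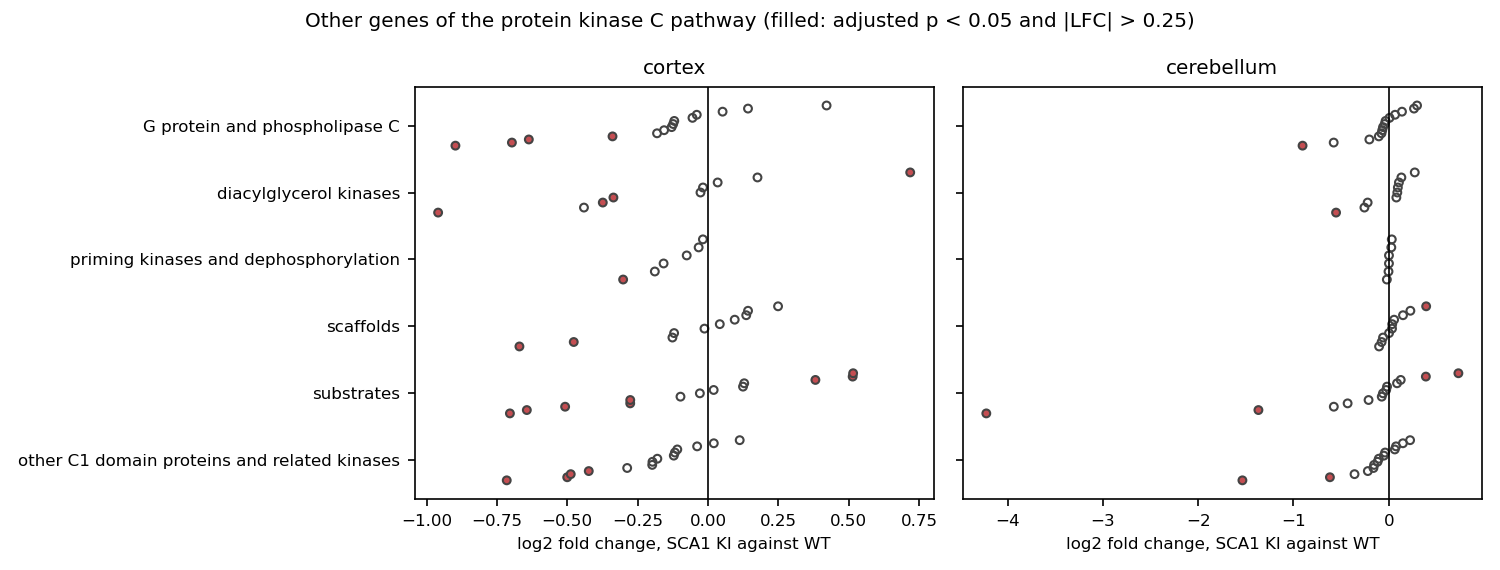
LFC of SCA1 KI against WT (x axis, a separate scale for each region) of the other genes of the pathway, a point for each gene, in 6 role groups, with called genes filled in red. In cortex 19 filled points lie to the left of 0 and 4 to the right, and in cerebellum 6 and 3, with Nrgn farthest to the left at −4.22.

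Over the 12 libraries, the genes with the pattern most like each isoform were sought among 12663 other genes whose mean normalized count reached 100, by Pearson's r of log2(normalized count + 1). These points share region and genotype, so r describes the pattern of the 4 groups. For Prkcb the most alike were Ppp3ca (r = 0.994), Lzts3 (0.990) and Camta2 (0.990), and for Prkca they were Scube1 (0.995), Raver2 (0.995) and Apc (0.994). For Prkcd they were Gdf10, Fat2 and B3gnt5 (each 0.998). Fat2 stands on the list of granule cell markers, whereas Gdf10 and B3gnt5 stand on none of the marker lists. Within cerebellum, WT library 2 had the lowest granule cell sum, 143453 normalized counts, with Prkcd at 100.2% of the WT mean. The SCA1 KI libraries had granule cell sums of 204447 to 211807, with Prkcd at 86.7% to 90.2%. The cell type behind the Prkcd values was not tested.

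For Prkce the genes most alike were Parp6 (r = 0.981), Nedd4l (0.979) and Zfp827 (0.978), and for Prkcz they were Suds3 (0.976), Rtn4rl1 (0.971) and St3gal5 (0.968). Prkch was most like Gdpd2 (0.954), Col16a1 and Arpc1b (each 0.943). Prkci was most like Krr1 (0.916), Uck2 (0.866) and Zcchc6 (0.860), and Prkcq like Harbi1 (0.852), Pcp4l1 (0.839) and Htr2c (0.809). No isoform was among the 3 genes most like another isoform.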

How the data were processed

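RNA was taken from whole cortex and whole cerebellum, 3 libraries for each of 4 groups. The authors used STAR for alignment of paired reads to mm10, featureCounts for the reads of each gene and DESeq2 for scaling. The deposited signal is the normalized count, reads over a size factor. The versions of these 3 tools are not given in the sources used here. Whole reads were recovered for 100% of values (tolerance 0.01 of a read), which gave the depth and the input of edgeR 4.0.16 and DESeq2 1.42.0 as alternatives. In R 4.3.3, limma 3.58.1 (trended empirical Bayes) was run on log2(normalized count + 1) of genes with a mean of 10 or more, with all 12 libraries and 4 group means, and 390 entries were left out. P-values were adjusted by Benjamini-Hochberg over all 15369 genes. The procedure was tested on simulated data. Between replicate libraries the chi-square per gene was 7.54 to 36.6, above sampling noise. Ratios between isoforms were compared by exact permutation tests. Lengths are unions of exons in GENCODE vM21 on GRCm38. The table holds values per gene only.

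Named genes were all 8 isoforms, up to 3 called pathway genes with the smallest p per role group, region and direction, and the 3 genes most correlated with each isoform. The result of 1 gene that this rule names is not reported here. Members and lists were chosen with earlier results of these data known. Alternatives were other pseudocounts (0.5 and 5), filters and limits, centring, both count tools, removal of a trend on length and GC content, separate fits of the regions and leaving out each library. Precision rests on 3 libraries a group.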

Additional observations from a re-analysis of the deposited data

Results flagged for a closer look

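The LFC of SCA1 KI against WT differed between the regions by the test of the difference itself for 3 isoforms. Cortex minus cerebellum was −1.08 for Prkcb, −0.70 for Prkce and −0.40 for Prkcz.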

How the results depend on the processing

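The 4 isoforms called lower in cortex were called in all 12 fits that left out a library. The fits without a cerebellar library changed only the shared estimate of the spread, not the cortical LFCs. The 4 isoforms were also called under every alternative but the limit of 1 on the size of the LFC, which left 0. That limit also left 0 pathway genes higher and 0 lower in cortex, and 0 higher and 3 lower in cerebellum. With the trend on length and GC content removed, 2 isoforms were called higher in cerebellum (Prkce, LFC 0.32, adjusted p = 0.0136, and Prkci, LFC 0.26, adjusted p = 0.0434), and the pathway genes numbered 7 higher and 12 lower in cortex and 7 higher in cerebellum. DESeq2 called 5 isoforms for the difference between the regions, adding Prkca (adjusted p = 0.0187) and Prkci (0.0438), and Prkca also passed with centring on the median (0.0433) and with the trend removed (0.00942). Leaving out 1 library gave 0 to 1 isoforms higher in cerebellum, 2 to 4 for the difference between the regions, and 12 to 19 pathway genes lower in cortex. Both the 1 isoform (Prkce, adjusted p = 0.0447) and the 12 pathway genes came without SCA1 KI cortex library A. The cause of these changes was not tested.

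Values near 0 changed sign in some settings, none of them called. With the length and GC trend removed, the cerebellar LFC of Prkca was 0.023 and the difference between the regions of Prkcd −0.0064. The LFC of Prkcq between WT regions was −0.028 with edgeR, −0.00035 with DESeq2 and −0.0066 with the trend removed. Leaving out 1 library gave ranges of −0.17 to 0.0011 for Prkcd and −0.085 to 0.13 for Prkch in cortex, −0.056 to 0.011 for Prkca and −0.070 to 0.067 for Prkcz in cerebellum, and −0.15 to 0.15 for Prkcq between WT regions. No paired analysis was possible because the columns carry letters and numbers of their own, which do not match the replicate numbers of the labels. With 3 libraries a group, the data do not exclude differences of Prkch and Prkcq anywhere inside their 95% intervals.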

Other observations

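The other lists of cell type markers gave the following values between SCA1 KI and WT. Of all genes tested, 4.82% were called higher and 10.8% lower in cortex, and 0.917% and 4.44% in cerebellum. Of 11 thalamic markers 1 was higher and 2 were lower in cortex, and 4 were lower in cerebellum. Some of these differences were large. Tcf7l2 averaged 1978.5 normalized counts in WT and 227 in SCA1 KI cerebellum, and Lhx9 averaged 572 and 40.9. In cortex Lhx9 averaged 17.6 in WT and 82.3 in SCA1 KI. The thalamic markers summed to 45710 to 47057 in WT cerebellum and to 47103 to 47679 in SCA1 KI cerebellum. Of 8 striatal markers 2 were lower in cortex and 1 in cerebellum, and of 6 hippocampal markers 2 and 1. Of 9 Purkinje cell markers 5 were lower and 1 higher in cortex, and 1 was lower in cerebellum, where they summed to 351182 to 437205 normalized counts in WT and 310935 to 348308 in SCA1 KI. Of 7 forebrain interneuron markers 1 was lower in cortex and 3 in cerebellum. No cortical excitatory marker rose in cortex, while 1 rose and 2 fell in cerebellum. No granule cell, oligodendrocyte, endothelial or choroid plexus marker was called in either region, and choroid plexus markers summed to 1393 to 75977 normalized counts over the SCA1 KI cerebellum libraries. Of microglia markers none was called in cortex and 1 was lower in cerebellum, and of astrocyte markers 1 was lower in cerebellum. Only 2 of 6 T cell markers were rows of the table, and neither was called.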
